A study of Homo sapiens with 6 samples.

Results

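The 8 subunits of the condensin complexes, together with TOP2A and MKI67, were examined as 10 genes out of 57861 with a usable value in every library, in RNA sequencing of MOLP-8 cells. The genes were chosen by name, as the shared and complex-specific subunits of condensin I and II and 2 other proteins of mitotic chromosomes, and each matched a single row per library. Earlier results of these data were known when the genes were chosen. MOLP-8 is an established human multiple myeloma cell line. LIN28B KO cells carried lentiCRISPRv2 with a guide against LIN28B and control cells carried lentiCRISPRv2 with a scrambled guide, and both were selected with puromycin at 1 µg/mL. Each group had 3 libraries, 6 in all. Whether the libraries stem from separate cultures, and whether the KO cells were a pool or a clone, is not given in the sources used here, so the p-values cover only library-to-library spread, part of which may be technical. LIN28B encodes an RNA-binding protein that keeps let-7 microRNA precursors from maturing.

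Condensins are ring-shaped complexes that fold chromatin into loops when a cell enters mitosis. Both complexes are built on the ATPases SMC2 and SMC4. Condensin I adds NCAPD2, NCAPG and NCAPH and reaches chromosomes after the nuclear envelope breaks down, whereas condensin II adds NCAPD3, NCAPG2 and NCAPH2 and is nuclear throughout the cell cycle. Topoisomerase II alpha, the product of TOP2A, untangles DNA on the same chromosome axes, and Ki-67, the product of MKI67, coats the surface of mitotic chromosomes and is the standard marker of proliferating cells. Transcription of many genes of this kind peaks in G2 and mitosis through a promoter element called the CHR and through CCAAT boxes, bound by the MuvB-containing complexes and by NF-Y.

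RefSeq promoter windows, which run from 250 bases before to 50 bases after the transcription start (300 bases, GRCh38.p14), were available for 9 of the 10 genes in 12 windows. NCAPH2 had no window, so its promoter was not searched. The CHR was searched as TTTGAA and the CCAAT box as CCAAT, each on both strands. A CHR match was present in 8 of the 12 windows and 8 of the 9 genes, while 10.6% of 12740 windows of the tested protein-coding genes held one, or 13.8% of 8676 genes with a window. The genes had been chosen as mitotic chromosome genes, so the count is a description. NCAPH was the gene without a CHR match, and its window held a CCAAT match. A CCAAT match was present in 5 of the 9 genes and 5 of the 12 windows, near the share of all tested genes. That share was 44.1% of 8676 genes and 35.2% of 12740 windows. A CHR together with at least 2 CCAAT matches was found for 4 genes, TOP2A, MKI67, NCAPD2 and NCAPD3, against 2.05% of 8676 genes and 1.48% of 12740 windows. An E2F site, searched as TTTGGCGC, TTTGCCGC, TTTCGCGC or TTTCCCGC on both strands, was present only in a window of NCAPD3, against 5.05% of all windows.

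The windows of those 4 genes, and that of NCAPG, which had the largest fitted change of the 10 without LIN28B KO library 3, are shown to let the arrangement of the matches be read, each on the strand of its gene and with matches to the 3 motifs in capitals. They lie at chr17:40417847-40418146 (minus strand) for TOP2A, chr10:128126374-128126673 (minus strand) for MKI67, chr12:6493852-6494151 (plus strand) for NCAPD2, chr11:134223918-134224217 (minus strand) for NCAPD3 and chr4:17810729-17811028 (plus strand) for NCAPG.
TOP2A: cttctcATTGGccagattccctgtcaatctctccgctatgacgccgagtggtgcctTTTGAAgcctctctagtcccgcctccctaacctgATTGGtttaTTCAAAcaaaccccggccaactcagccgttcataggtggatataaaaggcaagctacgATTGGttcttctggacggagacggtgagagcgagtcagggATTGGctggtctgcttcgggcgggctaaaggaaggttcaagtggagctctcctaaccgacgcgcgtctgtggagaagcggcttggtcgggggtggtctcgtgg
MKI67: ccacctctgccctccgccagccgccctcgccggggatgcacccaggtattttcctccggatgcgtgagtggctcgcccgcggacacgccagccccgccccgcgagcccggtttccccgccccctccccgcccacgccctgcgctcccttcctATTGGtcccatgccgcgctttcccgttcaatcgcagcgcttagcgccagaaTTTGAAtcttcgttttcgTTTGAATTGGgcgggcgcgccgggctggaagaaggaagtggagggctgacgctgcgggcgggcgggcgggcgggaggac
NCAPD2: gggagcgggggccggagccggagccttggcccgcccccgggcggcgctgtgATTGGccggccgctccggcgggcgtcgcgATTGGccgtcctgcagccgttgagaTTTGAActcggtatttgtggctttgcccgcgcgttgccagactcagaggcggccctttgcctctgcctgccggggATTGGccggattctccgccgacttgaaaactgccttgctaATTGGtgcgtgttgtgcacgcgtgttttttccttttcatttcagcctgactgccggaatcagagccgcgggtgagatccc
NCAPD3: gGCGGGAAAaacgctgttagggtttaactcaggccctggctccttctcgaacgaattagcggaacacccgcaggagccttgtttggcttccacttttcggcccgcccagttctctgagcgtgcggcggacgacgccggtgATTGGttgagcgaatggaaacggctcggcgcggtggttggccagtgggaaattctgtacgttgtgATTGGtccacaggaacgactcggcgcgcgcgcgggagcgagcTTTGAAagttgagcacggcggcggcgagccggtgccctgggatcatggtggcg
NCAPG: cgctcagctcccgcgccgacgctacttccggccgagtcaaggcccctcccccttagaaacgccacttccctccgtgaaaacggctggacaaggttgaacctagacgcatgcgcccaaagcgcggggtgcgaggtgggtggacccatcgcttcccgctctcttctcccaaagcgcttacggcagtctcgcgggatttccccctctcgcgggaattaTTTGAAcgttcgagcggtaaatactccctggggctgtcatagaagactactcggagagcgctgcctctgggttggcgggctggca

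In these windows the CCAAT boxes all read ATTGG, that is, in the inverted orientation. Positions are those of the first letter of a match on the strand of the gene, with the transcription start as +1. TOP2A held 4 inverted CCAAT boxes, at -244, -160, -93 and -53, and CHR matches at -194 and -151. NCAPD2 also held 4, at -199, -170, -70 and -30, with its CHR at -145. In both genes CCAAT boxes lay on either side of a CHR. In MKI67 CHR matches lay at -47 and -29, the second sharing its last A with a CCAAT match at -24, and another CCAAT match lay at -98. NCAPD3 had CCAAT matches at -110 and -45, a CHR at -3 and the E2F letters at -249. The NCAPG window had a CHR at -35 and no CCAAT match. A match is a run of letters and not a measured binding site.

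The design compares a guide against LIN28B with a scrambled guide. LIN28B acts on let-7 precursors, so the seed match of let-7 was looked for in the transcripts as well. The mature let-7a is shown with its seed, bases 2 to 8, in capitals.
let-7a-5p: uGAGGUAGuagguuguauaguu

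The complement of this seed, CTACCTC, was not found in the longest annotated 3′ UTR of any of the 10 genes, whose lengths were 393 to 2531 bases (GENCODE 29, sequence only). It was found in 10.97% of 11190 tested protein-coding genes with such a UTR. The search was for these 7 letters only and does not cover other kinds of site.

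Values are FPKM, fragments scaled to transcript length and library size, so that levels of different genes can be compared. Depth, estimated from the deposited bounds, came to 4810901 to 5600702 fragment equivalents in the LIN28B KO libraries and 6311593 to 8370042 in the controls. For the 10 genes the distance to the deposited upper bound was 4.65% to 16.1% of the value, which covers counting error only. LIN28B itself was at 8.41, 8.17 and 5.84 FPKM in LIN28B KO libraries 1 to 3, against 23.3, 24.3 and 25.5 FPKM in control libraries 1 to 3, so about 30.7% of the control mean remained. LIN28B KO library 3 was set apart by its general level: over the protein-coding genes tested it had a median log2 ratio to control of -0.42, against -0.04 in each of KO libraries 1 and 2 and -0.01 to 0.00 in the controls, and 28.7% of 349 olfactory receptor genes had a value above 0 in it, against 9.46% to 14.6% in the other 5 libraries. The fits of the 10 genes are therefore given with and without this library, and their levels library by library. All 8 plasma cell markers, among them SDC1, CD38 and IRF4, were above 1 FPKM. Their levels were not all alike between groups. SDC1, CD38 and XBP1 were lower in every KO library than in every control library, as were 20.1% of all genes tested. For XBP1 the gap was narrow, with 1011 FPKM in KO library 2 and 1013 FPKM in control library 2. SLAMF7 was higher, at 66.3 to 92.8 FPKM in KO and 41.9 to 51.6 FPKM in control libraries. The other plasma cell markers overlapped between groups. TNFRSF17, PRDM1 and JCHAIN did so only through KO library 3, and lay above every control in KO libraries 1 and 2. TNFRSF17 was at 160, 168 and 126 FPKM in KO libraries 1 to 3, against 118 to 132 FPKM in control libraries. The T and NK cell list summed to 2.09 to 2.91 FPKM in KO and 3.49 to 4.16 FPKM in control libraries, with 2 of 6 genes at 1 FPKM or more in any library and CD3D and NKG7 listed at 0 throughout. The myeloid list summed to 2.58 to 3.61 FPKM in KO and 1.04 to 1.40 FPKM in control libraries, with 2 of 6 genes at 1 FPKM or more and FCGR3A listed at 0. So the T and NK cell sum was lower in every KO library than in every control library. The myeloid sum was higher in every KO library, both sums being at low levels. Not every member followed its sum. CD7 was lower in every KO library than in every control library. CD3E was higher, at 0.849 to 1.27 FPKM in KO and 0.697 to 0.817 FPKM in control libraries. In the myeloid list S100A8 and S100A9 were higher in every KO library than in every control library. The other genes of these lists with a value above 0 overlapped between groups. The erythroid list, with no gene at 1 FPKM and HBA1 listed at 0, summed to 0.0698 to 0.619 FPKM in KO and 0.1001 to 1.01 FPKM in control libraries. For 5 matched fibroblast and endothelial markers the sum was 3.62, 3.49 and 13.4 FPKM in KO libraries 1 to 3 and 2.97 to 5.56 FPKM in controls, so that KO library 3 was highest. The part of other cell types in the results was not tested. In bulk RNA, fewer cells in a cell cycle phase and less RNA per cell cannot be told apart.

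All 10 genes were lower in LIN28B KO libraries than in control libraries, and for each of them the 3 KO values lay below the 3 control values. Of all 15803 genes tested, 20.1% showed this arrangement, and of 11308 protein-coding genes 26.4% had KO libraries 1 and 2 below the 3 controls, as did all 10 genes. KO means were 59.4% to 72.6% of the control means for 9 of the genes and 83.7% for NCAPH2. The means of KO libraries 1 and 2 alone were 64.8% to 78.0% for those 9 and 86.1% for NCAPH2. With 3 against 3 libraries the exact two-sided permutation test gave p = 0.1 for each gene, the smallest p possible in this design. In the limma fit with all 6 libraries none of the 10 genes passed the threshold of an adjusted p of 0.05 (adjusted p = 0.221 to 0.397), where 0.0316% of tested genes were called lower and 0.0633% higher; 9 of the 10, all but NCAPH2, had an unadjusted p under 0.05 in that fit, against 8.73% of tested genes in that direction. Without LIN28B KO library 3, in a fit of 11308 protein-coding genes called the 5-library fit here, 7 of the 10 genes fell (limma, Benjamini-Hochberg adjusted p = 0.0206 to 0.0493), against 3.02% of genes called lower and 1.08% called higher. Their log2 fold changes ran from -0.62 to -0.37. The 10 genes and this fit were chosen with earlier results of these data known. The counts set beside the shares of all genes are therefore a description. At an unadjusted p under 0.05 all 10 were lower in that fit, against 15.4% of its genes. The 3 that did not pass were SMC2, NCAPG2 and NCAPH2; among genes with at least 5 FPKM, SMC2 passed as well (adjusted p = 0.0498, limma). The calls rest on few libraries: leaving out any further library from this fit ended every call, for the 10 genes and for all others, and the whole table without KO library 3, non-coding genes included, left 1 call of the 10, TOP2A.

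**Figure D1:**
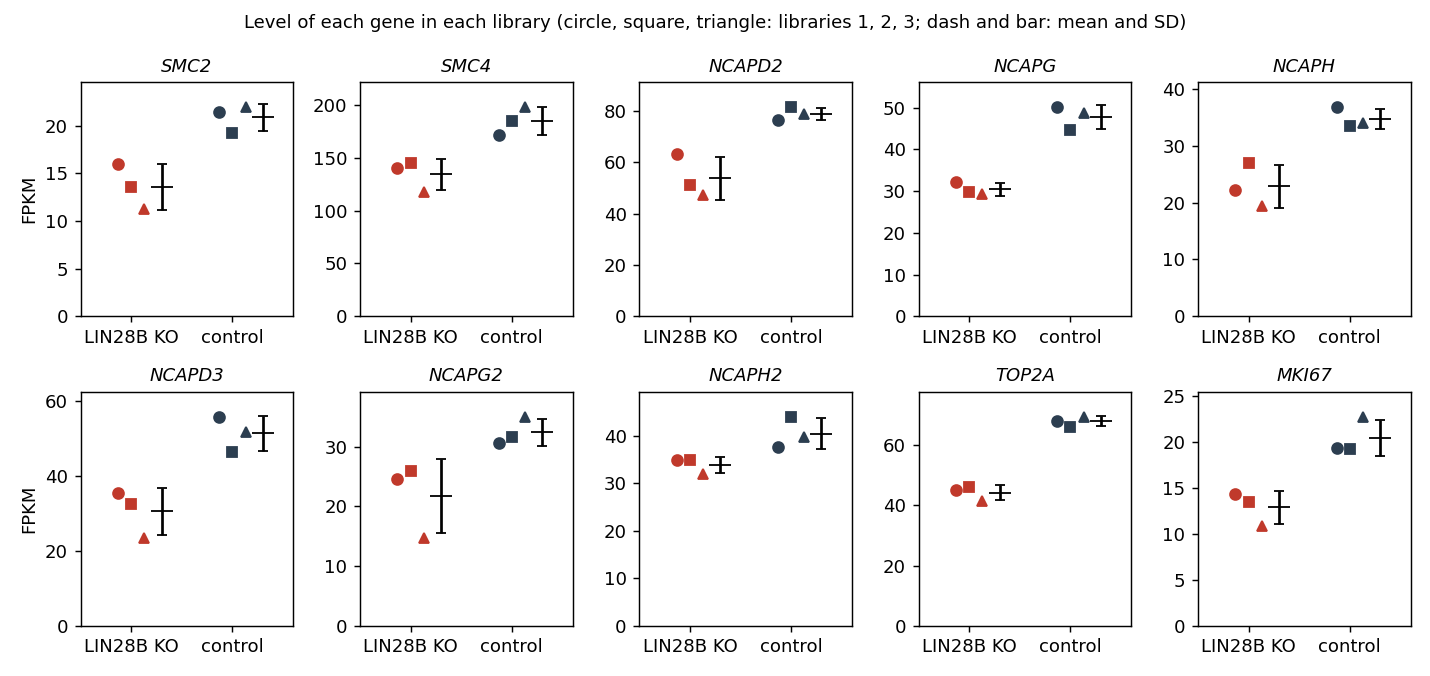
FPKM of each of the 10 genes (y axis, starting at 0) in the LIN28B KO libraries (left, red) and the control libraries (right, dark); markers are libraries 1 to 3, and the dash with bars is the mean and SD of 3. In each panel the KO points lie below the control points, by the least in NCAPH2 (31.9 to 34.9 FPKM in KO against 37.7 to 44.0 FPKM in control).

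The ATPases shared by both condensins lay far apart in level. SMC4 (chromosome 3, 160117062 to 160152750 of GRCh37, ENSG00000113810) stood at 140.0, 145 and 118 FPKM in LIN28B KO libraries 1 to 3, against 172, 185 and 198 FPKM in control libraries 1 to 3. SMC2 (chromosome 9, 106856541 to 106903698, ENSG00000136824) stood at 16.0, 13.6 and 11.2 FPKM in KO and at 21.5, 19.3 and 21.9 FPKM in control libraries. As deposited, KO library 3 was lowest for both genes, and the groups did not overlap. After cyclic loess, a scaling described below, it was lowest for neither gene. SMC4 averaged 134 ± 14.3 FPKM in KO and 185 ± 13.04 FPKM in control cells (SD, n = 3 each), and SMC2 averaged 13.6 ± 2.40 FPKM in KO and 20.9 ± 1.42 FPKM in control cells. Although the proteins act as a pair, SMC4 mRNA was 9.97 ± 1.07 times as abundant as SMC2 mRNA in KO and 8.87 ± 0.82 times in control libraries, and these ratios overlapped between groups. In the 5-library fit SMC4 fell by 0.37 on the log2 scale (SE 0.07, adjusted p = 0.0396, limma). SMC2 had a larger log2 fold change of -0.49 with a larger SE of 0.11 and did not pass (adjusted p = 0.0582, limma). The deposited SMC4 locus overlaps those of IFT80 and TRIM59 on the opposite strand. IFT80 averaged 38.2 FPKM in KO and 38.5 FPKM in control cells, and TRIM59 23.5 FPKM in KO and 28.4 FPKM in control cells. The strandedness of the libraries is not given in the sources used here, so the SMC4 value is uncertain if they were not stranded.

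Condensin I subunits were at 63.6% to 68.2% of the control means. NCAPD2, a HEAT-repeat subunit (chromosome 12, 6602522 to 6641121, ENSG00000010292), was at 63.3, 51.0 and 47.3 FPKM in KO libraries 1 to 3, against 76.7, 81.5 and 78.8 FPKM in control libraries 1 to 3. NCAPG, the other HEAT-repeat subunit (chromosome 4, 17812525 to 17846485, ENSG00000109805), was at 32.3, 29.7 and 29.3 FPKM in KO libraries and at 50.1, 44.6 and 48.8 FPKM in control libraries. NCAPH, the kleisin that closes the ring (chromosome 2, 97001525 to 97039583, ENSG00000121152), was at 22.3, 26.9 and 19.4 FPKM in KO libraries and at 36.8, 33.5 and 34.1 FPKM in control libraries. As deposited, the KO libraries lay close together for NCAPG and further apart for NCAPD2 and NCAPH, and library 3 was lowest for each. This depended on the scaling. After cyclic loess, library 3 was lowest for none of them. The log2 ratios to the control mean in KO libraries 1 to 3 were then -0.50, -0.62 and -0.21 for NCAPG. They were -0.25, -0.56 and -0.21 for NCAPD2 and -0.58, -0.31 and -0.37 for NCAPH. Means were 53.9 ± 8.36 FPKM in KO and 79.0 ± 2.38 FPKM in control cells for NCAPD2, 30.4 ± 1.62 FPKM in KO and 47.8 ± 2.85 FPKM in control cells for NCAPG, and 22.9 ± 3.80 FPKM in KO and 34.8 ± 1.76 FPKM in control cells for NCAPH (SD, n = 3 each). All 3 subunits fell in the 5-library fit. The log2 fold change was -0.62 for NCAPG (SE 0.08, adjusted p = 0.0249), -0.50 for NCAPH (SE 0.10, adjusted p = 0.0476) and -0.47 for NCAPD2 (SE 0.10, adjusted p = 0.0493, limma in each case). NCAPD2 lost the call with a pseudocount of 0.1 (adjusted p = 0.0503). The NCAPD2 locus overlaps MRPL51 on the opposite strand, which averaged 102 FPKM in KO and 125 FPKM in control cells, above NCAPD2 itself. It also overlaps SCARNA10 on the same strand (1.17 FPKM in KO and 2.08 FPKM in control cells). The NCAPG locus overlaps LCORL on the opposite strand (12.8 FPKM in KO and 14.0 FPKM in control cells). The NCAPD2 and NCAPG values are therefore uncertain if the libraries were not stranded.

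Condensin II subunits spread more widely, from NCAPD3 at 59.4% of its control mean, the lowest of the 10 genes, to NCAPH2 at 83.7%, the highest. NCAPD3, a HEAT-repeat subunit (chromosome 11, 134020014 to 134095348, ENSG00000151503), was at 35.5, 32.5 and 23.4 FPKM in KO libraries 1 to 3, against 55.7, 46.5 and 51.7 FPKM in control libraries 1 to 3. NCAPG2, the counterpart of NCAPG (chromosome 7, 158424003 to 158497520, ENSG00000146918), was at 24.6, 26.0 and 14.6 FPKM in KO libraries and at 30.7, 31.6 and 35.0 FPKM in control libraries. NCAPH2, the kleisin of condensin II (chromosome 22, 50946645 to 50961901, ENSG00000025770), was at 34.9, 34.8 and 31.9 FPKM in KO libraries and at 37.7, 44.0 and 39.7 FPKM in control libraries. As deposited, KO library 3 was far below KO libraries 1 and 2 for NCAPD3 and NCAPG2 and only slightly below them for NCAPH2. After cyclic loess the log2 ratios to the control mean were -0.46, -0.59 and -0.62 for NCAPD3 in KO libraries 1 to 3. They were -0.34, -0.27 and -0.67 for NCAPG2 and -0.15, -0.16 and 0.15 for NCAPH2. NCAPD3 averaged 30.5 ± 6.29 FPKM in KO and 51.3 ± 4.65 FPKM in control cells, NCAPG2 21.7 ± 6.19 FPKM in KO and 32.4 ± 2.28 FPKM in control cells, and NCAPH2 33.9 ± 1.69 FPKM in KO and 40.5 ± 3.22 FPKM in control cells (SD, n = 3 each). NCAPD3 fell by 0.58 on the log2 scale in the 5-library fit (SE 0.09, adjusted p = 0.0329, limma). NCAPG2 at -0.35 (SE 0.09, adjusted p = 0.0744, limma) and NCAPH2 at -0.21 (SE 0.08, adjusted p = 0.203, limma) did not pass; for NCAPG2 KO libraries 1 and 2 held 78.0% of the control mean, and all 3 together 67.03%. NCAPD3 overlaps VPS26B, JAM3 and an antisense transcript, RP11-700F16.3, all on the opposite strand. VPS26B averaged 22.1 FPKM in KO and 24.6 FPKM in control cells, and JAM3 17.8 FPKM in KO and 24.6 FPKM in control cells. RP11-700F16.3 averaged 18.6 FPKM in KO and 12.04 FPKM in control cells. The NCAPD3 value is therefore uncertain as well if the libraries were not stranded.

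The KO means of TOP2A and MKI67 were 65.1% and 63.1% of their control means. TOP2A (chromosome 17, 38544768 to 38574202, ENSG00000131747) was at 45.1, 46.3 and 41.5 FPKM in LIN28B KO libraries 1 to 3, against 68.2, 66.3 and 69.5 FPKM in control libraries 1 to 3. MKI67 (chromosome 10, 129894923 to 129924649, ENSG00000148773) was at 14.3, 13.4 and 10.9 FPKM in KO libraries and at 19.3, 19.2 and 22.7 FPKM in control libraries. Relative to the means, the spread of the deposited values within groups was small for TOP2A and larger for MKI67. Means were 44.3 ± 2.49 FPKM in KO and 68.0 ± 1.64 FPKM in control cells for TOP2A. For MKI67 they were 12.9 ± 1.79 FPKM in KO and 20.4 ± 1.998 FPKM in control cells (SD, n = 3 each). After cyclic loess the KO spread was wider for TOP2A than for MKI67. The log2 ratios to the control mean were then -0.52, -0.49 and -0.19 for TOP2A in KO libraries 1 to 3. For MKI67 they were -0.46, -0.55 and -0.46. Both fell in the 5-library fit, TOP2A by 0.57 on the log2 scale (SE 0.06, adjusted p = 0.0206, limma) and MKI67 by 0.54 (SE 0.10, adjusted p = 0.0439, limma). TOP2A had the smallest adjusted p of the 10 genes. The difference between the changes of TOP2A and MKI67 was not tested.

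**Figure D2:**
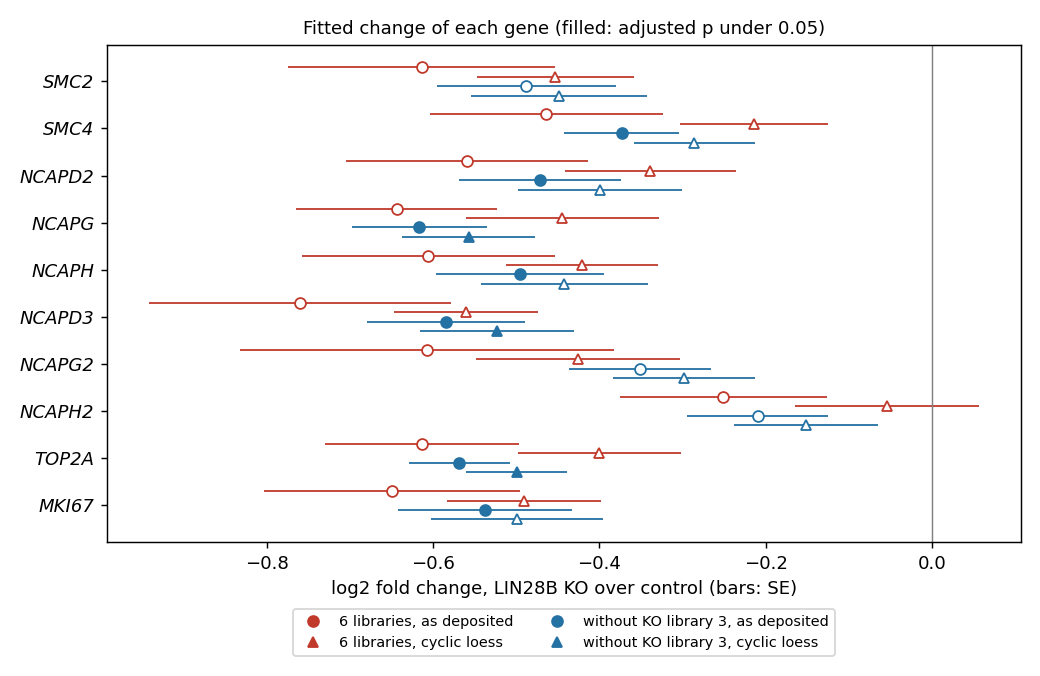
Log2 fold change of LIN28B KO over control (x axis) with its SE for each of the 10 genes, with all 6 libraries (red) and without KO library 3 (blue), as deposited (circles) or after cyclic loess scaling (triangles). Filled symbols passed an adjusted p of 0.05: 7 genes in the 5-library fit, 3 of these after cyclic loess, and none with all 6 libraries under either scaling; all estimates lie below 0.

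Another scaling of the libraries changed the values of KO library 3 most and those of KO libraries 1 and 2 little. Over the 10 genes the log2 ratios to the control mean had medians of -0.44, -0.57 and -0.78 in KO libraries 1 to 3 as deposited. Cyclic loess scaling removes a trend with level between libraries and moved the median log2 fold change of all genes tested with 6 libraries from -0.13 to 0.00. After it the medians of the 10 genes were -0.40, -0.52 and -0.29 in KO libraries 1 to 3, and those of all protein-coding genes were between -0.02 and -0.01. In KO library 3 after this scaling, 8 of the 10 genes were below all controls, as were 36.5% of all genes tested, from NCAPG2 at -0.67 and NCAPD3 at -0.62 to TOP2A at -0.19. SMC4 at -0.06 lay within the range of the controls there, and NCAPH2 at 0.15 lay above all of them. Every KO library was below every control library for 8 of the 10 genes after this scaling, and for 13.3% of all genes tested. The fitted log2 fold changes with 6 libraries and cyclic loess ran from -0.56 for NCAPD3 to -0.05 for NCAPH2, and none passed (adjusted p = 0.0591 to 0.824, limma), where 0.342% of genes were called lower and 0.361% higher. In the 5-library fit cyclic loess changed the split of all calls from 122 higher and 341 lower to 122 higher and 132 lower. NCAPG, NCAPD3 and TOP2A kept the call with it (log2 fold changes of -0.56, -0.52 and -0.50, adjusted p = 0.0294, 0.0480 and 0.0240, limma), against 1.17% of genes called lower and 1.08% higher, while SMC4, NCAPD2, NCAPH and MKI67 did not (adjusted p = 0.0934, 0.0879, 0.0783 and 0.0660).

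**Figure D3:**
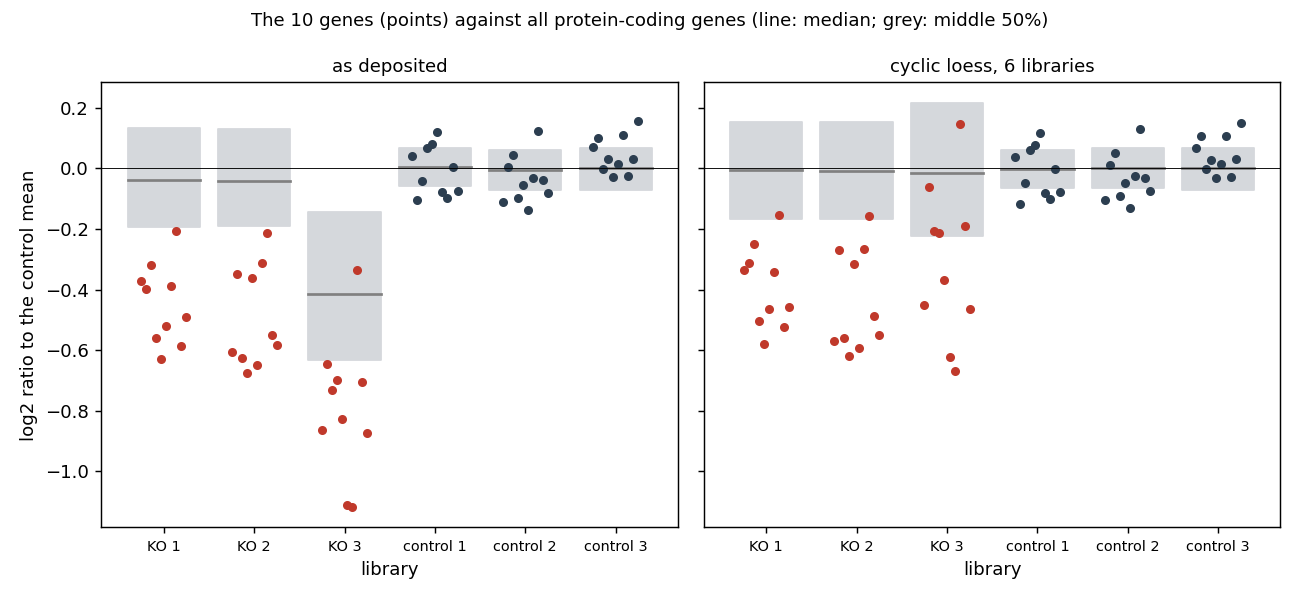
Log2 ratio to the control mean (y axis) of the 10 genes (points) in each library (x axis), as deposited (left) and after cyclic loess (right); the line and grey block are the median and the middle 50% of 11434 protein-coding genes. KO library 3 is shifted as a whole before scaling, with a median of -0.42, and the points of KO libraries 1 and 2 lie below the line under either scaling.

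Relative to all protein-coding genes in the 5-library fit, the 10 genes except NCAPH2 lay in the lower tail without forming its end. Only 1.43% of the 11308 genes had a lower log2 fold change than NCAPG, 1.71% than NCAPD3, 1.87% than TOP2A and 2.31% than MKI67. SMC4 stood above 6.63%, NCAPG2 above 7.71% and NCAPH2 above 19.6% of genes. The median over the 10 genes was -0.49 in that fit, against -0.04 over all genes tested. With all 6 libraries it was -0.61, against -0.13. In the 6-library fit NCAPH2 stood above 30.7% of all genes tested as deposited and above 40.1% after cyclic loess. SMC4 stood above 9.01% and 19.0%. The others ran from 1.97% for NCAPD3 to 5.08% for NCAPD2 as deposited. After cyclic loess they ran from 3.73% for NCAPD3 to 9.92% for NCAPD2.

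The order of levels in control cells was SMC4, NCAPD2, TOP2A, NCAPD3, NCAPG, NCAPH2, NCAPH, NCAPG2, SMC2 and MKI67. The control values of NCAPD3 and NCAPG overlapped, as did those of NCAPH and NCAPG2 and those of SMC2 and MKI67. Within each control library NCAPD3 was above NCAPG, but their deposited bounds overlapped there. For the other pairs the order differed between control libraries, so that it is not resolved. In LIN28B KO cells NCAPH2 stood in position 4, against position 6 in control cells, above NCAPD3 and NCAPG on the FPKM scale, and the other genes kept their order relative to each other in the means of 3. In the means of KO libraries 1 and 2, NCAPG2 (25.3 FPKM) also stood above NCAPH (24.6 FPKM). The KO values of NCAPD3 ran from 23.4 to 35.5 FPKM and overlapped those of NCAPH2, NCAPG, NCAPH and NCAPG2. Values also overlapped between NCAPH2 and NCAPG, NCAPH and NCAPG2, NCAPG2 and SMC2, and SMC2 and MKI67 in KO cells. Within each KO library NCAPD3 was above NCAPH and NCAPG2, and NCAPG2 was above SMC2. NCAPH2 was likewise above NCAPG and SMC2 above MKI67, with overlapping deposited bounds. These orders were not tested.

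Ratios between genes were taken within each library, as deposited; a constant factor for a library leaves them as they are, but cyclic loess, which depends on level, does not. The condensin I subunits, as a geometric mean of 3, stood at 1.14, 1.117 and 1.35 times those of condensin II in KO libraries 1 to 3 and at 1.30, 1.23 and 1.22 times in control libraries 1 to 3. KO libraries 1 and 2 were below all controls and KO library 3 above them, so no common direction was seen. NCAPD2 over NCAPD3 averaged 1.79 ± 0.22 in KO and 1.55 ± 0.19 in control cells, and NCAPG over NCAPG2 1.49 ± 0.45 in KO and 1.48 ± 0.13 in control cells (SD, n = 3 each), with overlapping groups. For NCAPG over NCAPG2 the overlap came from KO library 3, at 1.999, while KO libraries 1 and 2, at 1.31 and 1.146, were below all controls. NCAPH over NCAPH2 was 0.639, 0.774 and 0.607 in KO libraries and 0.976, 0.761 and 0.859 in control libraries; KO library 2 overlapped the controls. The ratio of TOP2A to MKI67 was 3.47 ± 0.34 in KO and 3.35 ± 0.25 in control cells and overlapped as well. These ratios were not tested.

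TOP2A has a paralog, TOP2B, which resting cells express as well. TOP2A over TOP2B was 0.742, 0.913 and 0.990 in KO libraries 1 to 3, against 1.20, 1.34 and 1.28 in control libraries 1 to 3. The groups did not overlap, also after cyclic loess. The more abundant of the paralogs was TOP2B in KO libraries 1 and 2 and TOP2A in each control library. In KO library 3 the order was not resolved, with TOP2B at 41.9 FPKM and TOP2A at 41.5 FPKM (deposited bounds 38.7 to 44.3 FPKM). TOP2B itself was at 60.8, 50.7 and 41.9 FPKM in KO libraries and at 56.9, 49.4 and 54.3 FPKM in control libraries, and did not pass in the 5-library fit (log2 fold change 0.06, SE 0.10, adjusted p = 0.790, limma). Its groups overlapped, and it was chosen after its value was seen. The values of TOP2A alone were already lower in every KO library than in every control library, as for 20.1% of all genes tested. The ratio was not tested.

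**Figure D4:**
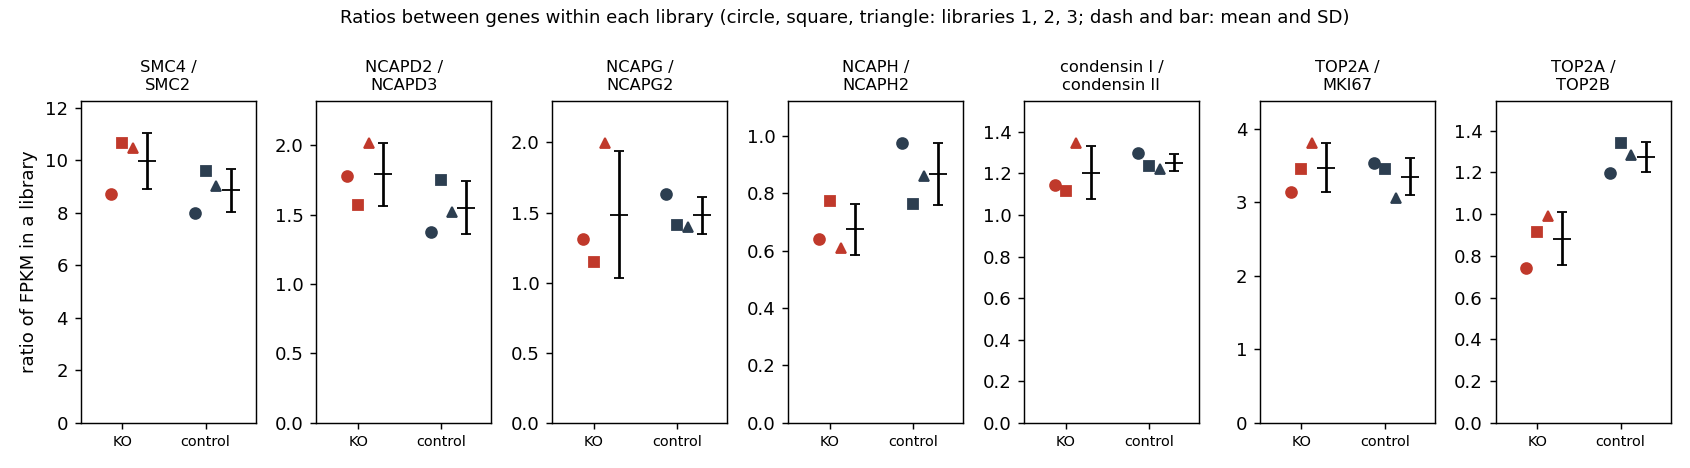
Ratio of FPKM between named genes within each library (y axes, starting at 0; condensin I over II uses geometric means of 3 subunits each), in LIN28B KO (left) and control libraries (right), with the mean and SD of 3. The TOP2A to TOP2B ratio is the only one of the 7 whose groups do not overlap. TOP2B was chosen after its value was seen, and the groups of TOP2A alone do not overlap either.

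Genes that act with condensins on mitotic chromosomes were read from lists written with earlier results of these data known. With all 6 libraries no member of these 6 lists passed as deposited, and after cyclic loess CDCA8 and CDCA5 did (adjusted p = 0.0499 and 0.0457, limma), against 0.342% of genes called lower. In the 5-library fit 3.02% of genes were called lower, or 1.17% after cyclic loess. The chromosomal passenger complex, which carries the kinase Aurora B to chromosomes and promotes condensin loading, had a median log2 fold change of -0.56 in the 5-library fit, and 3 of its 4 members fell, against 3.02% of genes. These were INCENP, its scaffold (28.7, 21.7 and 24.5 FPKM in KO libraries 1 to 3, against 43.2, 39.7 and 41.4 FPKM in control libraries; log2 fold change -0.72, SE 0.12), CDCA8, which targets it to centromeres (-0.59, SE 0.09), and AURKB, the kinase (-0.54, SE 0.08); their adjusted p were 0.0337, 0.0301 and 0.0308 (limma). They passed after cyclic loess too (adjusted p = 0.0482, 0.0403 and 0.0474). BIRC5, named after its value was seen, had -0.27 (SE 0.09, adjusted p = 0.136).

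Among 17 kinases, motors and other regulators of mitotic chromosomes the median was -0.39 and 4 fell and none rose, against 3.02% called lower and 1.08% called higher among all genes. KIF2C, a microtubule depolymerase, was at -0.59 on the log2 scale (SE 0.09, adjusted p = 0.0312, limma), KIF22, a chromosome-bound motor, -0.55 (SE 0.09, adjusted p = 0.0313) and CCNA2, cyclin A2, -0.50 (SE 0.08, adjusted p = 0.0329). The fourth was BUB1 (-0.47, SE 0.09, adjusted p = 0.0411), a checkpoint kinase, named after its value was seen. After cyclic loess 3 of the 4 remained called, without BUB1 (adjusted p = 0.0702). Of 9 partners of Ki-67, 2 fell, against 3.02% of all genes: CDCA2, which brings protein phosphatase 1 to chromosomes (-0.65, SE 0.10, adjusted p = 0.0297), and CBX5, the heterochromatin protein HP1 alpha (-0.41, SE 0.07, adjusted p = 0.0340), of which CDCA2 passed after cyclic loess (adjusted p = 0.0377, and 0.0624 for CBX5). KIF15, a spindle motor, had -0.51 (SE 0.11, adjusted p = 0.0562). The list median was -0.20.

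Cohesin is the related ring complex that holds sister chromatids together. The median over its 19 genes was -0.14 in the 5-library fit, and 2 members fell, against 3.02% of all genes: CDCA5 or sororin, which protects cohesion (38.8, 39.9 and 25.7 FPKM in KO libraries 1 to 3, against 63.7, 57.3 and 56.6 FPKM in control libraries; log2 fold change -0.58, SE 0.08, adjusted p = 0.0249, limma), and PTTG1 or securin, the inhibitor of separase (-0.33, SE 0.06, adjusted p = 0.0384). CDCA5 passed after cyclic loess as well (adjusted p = 0.0306), and PTTG1 did not (adjusted p = 0.0816). SGO1, a protector of centromeric cohesion, had -0.58 (SE 0.13, adjusted p = 0.0582). The ring subunits SMC1A (-0.41, SE 0.09, adjusted p = 0.0668), SMC3 (-0.07, SE 0.08, adjusted p = 0.654) and RAD21 (-0.19, SE 0.08, adjusted p = 0.192), named after their values were seen, did not pass. None of 6 genes of the SMC5/6 complex, which acts in DNA repair, passed, with a median of -0.06 and log2 fold changes of -0.24 for SMC6 (SE 0.13, adjusted p = 0.319), 0.13 for NSMCE2 (SE 0.08, adjusted p = 0.373) and -0.15 for NSMCE4A (SE 0.12, adjusted p = 0.513). Nor did any of the 5 other topoisomerase genes, with a median of -0.08 and TOP3B at 0.20 (SE 0.11, adjusted p = 0.309), TOP1 at -0.09 (SE 0.06, adjusted p = 0.437) and TOP1MT at -0.10 (SE 0.08, adjusted p = 0.462). Differences between the lists were not tested.

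**Figure D5:**
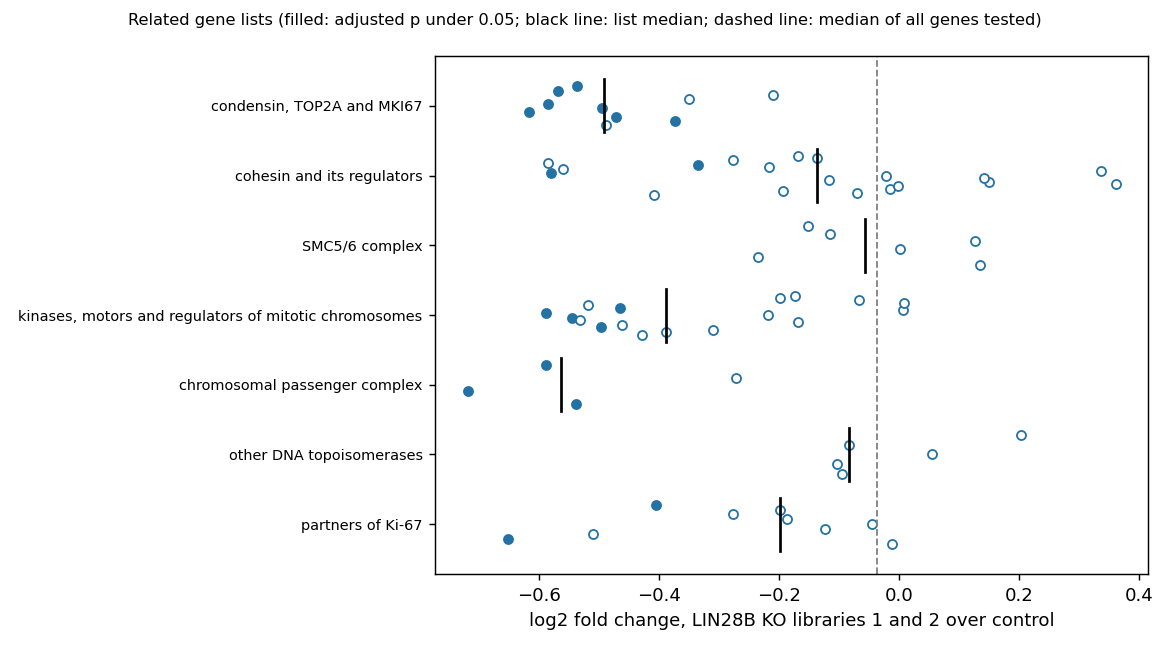
Log2 fold change of LIN28B KO libraries 1 and 2 over the controls (x axis) for the 10 genes and 6 related lists (rows); filled points passed an adjusted p of 0.05, the black line is the median of a list and the dashed line that of all 11308 genes tested (-0.04). The medians run from -0.56 for the chromosomal passenger complex and -0.49 for the 10 genes to -0.06 for SMC5/6.

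The mean profile of the 10 genes over the 6 libraries was compared with those of 9058 protein-coding genes with a mean of at least 5 FPKM, each set to its own control mean on the log2 scale. The smallest root mean square distances were those of MCM8, a helicase-like protein of homologous recombination (0.0191), FANCD2, of the Fanconi anaemia repair pathway (0.0268), DEK, a chromatin protein (0.0288), POC1A, a centriole protein (0.0380), and ITPRIPL1 (0.0393). The median distance was 0.311. Without LIN28B KO library 3, 1 of these 5, MCM8, was still among the 5 nearest, and the other 4 ranked between 7 and 24. FANCD2 was at 37.2, 34.8 and 29.1 FPKM in KO libraries 1 to 3, against 51.3, 47.7 and 51.9 FPKM in control libraries 1 to 3. Of the 10 genes TOP2A (0.0715), SMC2 (0.0733) and MKI67 (0.0768) lay nearest to their common profile, and NCAPH2 (0.253) lay farthest from it.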

How the data were processed

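RNA from 3 LIN28B KO and 3 control libraries was measured by RNA sequencing. The submitters' processing notes name GRCh37 as the build and cutadapt, TopHat2 and HTSeq as tools, without versions or roles; the program that wrote the tables is not given in the sources used here. Per the file headers, the authors deposited FPKM for each gene, with its bounds on either side. The 222 rows of 108 repeated genes were summed, and 25 genes with a failed estimate in any library were left out, which kept 57861. Fragment equivalents are sums of the squared ratio of 2 FPKM to the distance to the upper bound, and describe depth only. Starts were made 1-based.

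Log2(FPKM + 0.5) was fitted with limma 3.58.1 under R 4.3.3, using a variance trend and no covariates, on genes with at least 1 FPKM in at least 3 libraries, with Benjamini-Hochberg adjustment over all genes tested and a threshold of 0.05. Fold changes are on this scale, which understates those of low genes. The 5-library fit left out LIN28B KO library 3 and used genes that GENCODE 29 lists as protein-coding. The fitting was tested on simulated data, with noise for all libraries drawn from the spread of the controls. The shift of LIN28B KO library 3 was not simulated, so that test does not bear on the calls made here. The 10 genes, the lists and the 5-library fit were chosen with earlier results of these data known. Named beside the 10 genes were LIN28B, up to 3 genes of each list by p in the 5-library fit, and the 5 nearest profiles; TOP2B, as the paralog of TOP2A, BIRC5, BUB1 and 3 cohesin ring subunits fall outside this rule and were chosen after their values were seen. The E2F letters were widened once after a first search of the promoters. Alternatives were other pseudocounts, filters, scalings, gene sets, a replicate block, no variance trend and leaving out each library.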

Additional observations from a re-analysis of the deposited data

How the results depend on the processing

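The log2 fold changes of the 10 genes were below 0 in both fits under every alternative run; what varied was the number of calls. With all 6 libraries, the 10 higher and 5 lower genes over the table became 5 and 1 without a filter, 57 and 54 with cyclic loess, and 132 and 142 with cyclic loess on protein-coding genes (chosen after seeing the data). Lower genes numbered 1 with at least 5 FPKM, 13 with quantile normalization, 18 among protein-coding genes and 2 with the replicate block, whose numbers are shared only by label. Leaving out 1 library gave 1 to 23 higher and 0 to 41 lower genes, the most without LIN28B KO library 3. Of the 10 genes 0 were called, or 1 without LIN28B KO library 3 (TOP2A) and 1 with cyclic loess on protein-coding genes (NCAPD3, adjusted p = 0.0250).

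In the 5-library fit, 122 higher and 341 lower genes with 7 of the 10 called became 6, 18 and 1 without a filter, 3, 8 and 0 without a variance trend, 23, 41 and 1 with all gene types, and 0, 0 and 0 with the replicate block (1408 lower at an unadjusted p under 0.05). The block rests on numbers that are shared only by label. Same-numbered KO and control libraries had correlations of deviations from their group means of -0.03 to 0.04. KO libraries 1 and 3 correlated best with a control of another number. Such deviations sum to 0 within a group, so these correlations cannot exclude a pairing. With at least 5 FPKM, 107 higher and 400 lower genes and 8 of the 10 were called, SMC2 among them (adjusted p = 0.0498). Lower genes and calls among the 10 were 133 and 3 with quantile normalization and 132 and 3 with cyclic loess. Leaving out any further library gave 0 higher, 0 lower and 0 of the 10, with 9 or 10 of the 10 lower at an unadjusted p under 0.05, against 11.6% to 14% of all genes in those fits. The causes were not tested. Depth limits the precision of a single value to the deposited bounds.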
